A study of Mus musculus with 3 samples.

Results

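Fibroblasts of the mouse gallbladder in which Ccl11, Postn and Col6a1 led were described from droplet single-cell counts. A fibroblast gate kept barcodes with at least 300 genes, at most 20% mitochondrial counts, no Ptprc molecule, under 6000 CPM of Epcam, Krt8, Krt18 and Krt19 together, and a summed Col1a1, Col1a2, Col3a1 and Dcn level of at least 5000 CPM (counts scaled to a common library total) that exceeded the muscle genes Acta2, Tagln and Myh11. Within the gate, 4 trios of genes were summed in each barcode as unique molecular identifiers (UMIs, counted RNA molecules). The trios were Pi16, Mfap5 and Clec3b, then Inmt, Gdf10 and Igfbp3, then Sfrp1, Smoc2 and Cilp, and last Ccl11, Postn and Col6a1. A barcode became a member if the last sum was at least 3 UMIs and strictly the highest. The rule kept 1897 of 27700 barcodes, or 34.5% of the 5500 barcodes in the fibroblast gate. These measured values chose the members, so the levels of the trio and gate genes are a description and support nothing.

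The samples were 3 pools of gallbladders from male C57BL/6 mice, whose age is not given in the sources used here. One pool came from mice given vehicle by oral gavage for 6 weeks, one from mice given nanoplastics by gavage for 3 weeks and one from mice given nanoplastics for 6 weeks. Each pool held 10 gallbladders digested with trypsin and gave 1 library, so no group had a replicate and nothing was tested between groups. The deposited barcodes carry a library number of 1, 2 or 3 that neither the files nor the labels tie to a sample, so each value is given by library number. The libraries have no group here, and they do not serve as replicates.

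Ccl11 encodes eotaxin-1, a chemokine that draws eosinophils through the receptor Ccr3. Postn encodes periostin, a secreted matrix protein of connective tissue that is raised in many settings of repair and type 2 inflammation, and Col6a1 encodes a chain of the beaded-filament collagen VI. In hollow digestive organs, fibroblasts below the epithelium are known as a source of Wnt and bone morphogenetic protein (BMP) signals that act on epithelial cells. Fibroblasts of the outer, adventitial layer carry Pi16, Clec3b and Dpt and are rich in elastic-fibre genes.

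The libraries differed in ways that touch the members. Total counts were 72943584, 121349261 and 58172348 UMIs, and the median member held 10484.5, 4401 and 3219 UMIs. At least 3 UMIs of the mesothelial genes Msln, Upk3b and Lrrn4 were carried by 6, 3 and 48 members of libraries 1, 2 and 3. Those 48 barcodes were deep, with a median of 10265 UMIs, and held 25.8% of the member UMIs of library 3. Some results that rest on library 3 are therefore also given without the mesothelial-gene barcodes, a setting chosen after the data were seen. Where this is not stated, library 3 values include them. Between 15 and 22 barcode sequences were shared by any pair of libraries, none of them among members of both. Scrublet called 4, 15 and 11 members doublets in libraries 1, 2 and 3, and they were kept, as the rule has no doublet filter.

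Members carried fibroblast markers that the rule did not use, though not all at the level of the other trios. Pdgfra, a receptor that marks fibroblasts, stood at 636, 639 and 575 CPM in libraries 1, 2 and 3. Lum, which encodes the matrix proteoglycan lumican, was at 562, 491 and 533 CPM. Without the mesothelial-gene barcodes, log2 ratios over the other trios were 0.35, 0.18 and -0.25 for Pdgfra and 0.43, 0.40 and 0.19 for Pdgfrb. They were -0.08, -0.43 and -0.22 for Lum, -0.64, -0.62 and -0.46 for Fbln1, and -1.34, -1.45 and -1.42 for Dpt. The markers of other cells were not at 0, and in library 3 some sums lay above those of the barcodes led by the other trios. The 12 epithelial markers summed to 572, 1329 and 1784 CPM, against 600, 1587 and 1131 CPM in the barcodes led by the other trios. Without the mesothelial-gene barcodes the member sums were 491, 1292 and 1157 CPM. The 13 immune markers summed to 118, 172 and 132 CPM, with Ptprc at 0 by the rule, and the 8 Schwann cell and glial markers to 2.69, 7.56 and 16.1 CPM. The 9 mesothelial markers summed to 255, 298 and 2336 CPM, against 286, 589 and 652 CPM in the other trios. Without the mesothelial-gene barcodes the member sums were 87.5, 226 and 193 CPM. The 9 smooth muscle markers summed to 1574, 1003 and 2085 CPM, against 1466, 798 and 1243 CPM in the other trios. Without the mesothelial-gene barcodes they summed to 1581, 1012 and 2745 CPM in members. The 11 endothelial markers summed to 42.3, 35.4 and 194 CPM, and to 36.8, 30.8 and 99.3 CPM without those barcodes. The 8 pericyte markers summed to 321, 365 and 431 CPM, and to 328, 368 and 571 CPM without them. The 10 pancreatic acinar markers summed to 12.7, 38.9 and 42.2 CPM and the 9 rod and microglial markers to 90.2, 94.5 and 199 CPM. Ddx3y, a gene of the Y chromosome, was at 209, 209 and 278 CPM, and Xist had 2 UMIs in all members, and the labels give the mice as male.

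The share of members within the fibroblast gate differed widely between libraries, and their share of all filtered barcodes differed less. Members were 458 of 706 gate barcodes of library 1, or 64.9% (exact binomial 95% interval 61.2 to 68.4%). For library 2 they were 765 of 1097, or 69.7% (66.9 to 72.4%), and for library 3 only 674 of 3697, or 18.2% (17.0 to 19.5%). Measured against all barcodes that passed the gene and mitochondrial filters, the same members were 10.4% (9.51 to 11.3%), 6.62% (6.17 to 7.09%) and 6.71% (6.22 to 7.21%). The libraries differed more in the other fibroblasts, in which the Inmt trio led in 39, 64 and 1147 barcodes of libraries 1, 2 and 3, the Sfrp1 trio in 109, 145 and 899, and the Pi16 trio in 41, 38 and 403. These intervals, like all intervals here, cover counting error only.

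**Figure D1:**
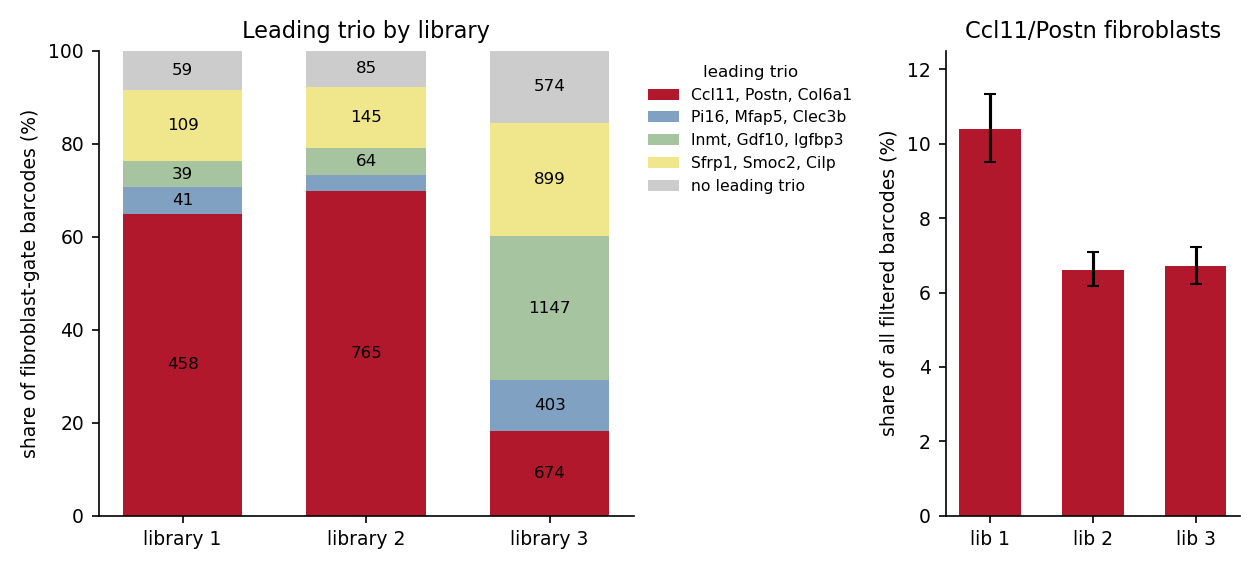
Left, the share (%) of fibroblast-gate barcodes led by each gene trio in libraries 1 to 3, with the number of barcodes printed in the larger segments. Right, members as a share (%) of all filtered barcodes, with exact binomial 95% intervals; members are 64.9, 69.7 and 18.2% of the gate but 10.4, 6.62 and 6.71% of all filtered barcodes.

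Members were deeper than the other fibroblasts. The median member held 4510 UMIs, against 2326 UMIs for barcodes led by the other trios. With every barcode thinned to 2000 UMIs before the rule and shallower barcodes left out, 1521 barcodes were members and their share of the gate was 41.9%, a setting that changes both the depth and the barcodes counted. Of gate barcodes, 530 had under 3 UMIs in every trio and 188 were tied. Just inside the threshold were 75 barcodes with exactly 3 UMIs of the trio, whose summed Ccl11 level was 332 CPM, Postn 476 CPM and Col6a1 891 CPM. Just outside were 69 barcodes led by the trio at 2 UMIs, at 278, 269 and 777 CPM, and 88 barcodes tied with another trio at 494, 370 and 840 CPM.

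The window of 250 bases before an annotated start is shown for Postn, which chose the members, and for Dkk2 and S100a4, which were among the genes highest in them, because each holds the TATA-box letters TATAAA, printed in capitals. Postn has 2 starts in the table, and the window before the other does not hold these letters. The sequences are those of RefSeq on GRCm38.p6, plus strand, and overlap no annotated exon of GENCODE M21. They lie at chr3:54360857-54361106, chr3:132085042-132085291 and chr3:90603520-90603769.
Postn: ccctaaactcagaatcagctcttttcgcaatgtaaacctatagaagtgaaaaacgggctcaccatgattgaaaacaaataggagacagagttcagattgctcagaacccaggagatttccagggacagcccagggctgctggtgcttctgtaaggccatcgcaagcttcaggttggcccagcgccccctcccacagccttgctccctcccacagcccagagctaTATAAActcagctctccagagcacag
Dkk2: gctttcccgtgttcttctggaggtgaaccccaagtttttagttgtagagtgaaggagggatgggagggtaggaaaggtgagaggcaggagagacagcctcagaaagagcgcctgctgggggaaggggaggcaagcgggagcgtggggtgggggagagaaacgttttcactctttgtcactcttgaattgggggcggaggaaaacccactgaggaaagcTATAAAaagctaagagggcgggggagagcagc
S100a4: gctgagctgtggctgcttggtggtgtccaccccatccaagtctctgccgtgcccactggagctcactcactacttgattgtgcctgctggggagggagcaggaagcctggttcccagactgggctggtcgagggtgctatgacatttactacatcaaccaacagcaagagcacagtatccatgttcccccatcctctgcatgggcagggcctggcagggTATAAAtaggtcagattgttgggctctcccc
Of the 20 genes highest in the members that are named below, 14 had a start in the table and 3 held TATAAA on either strand, namely Dkk2, S100a4 and Wif1. Over 32851 starts, 12.4% held it. GACCACCCA, the consensus of the Gli factors of Hedgehog signalling, was in none of these windows and in 0.225% of all starts.

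Ccl11 (chromosome 11, 82057823 to 82062955, plus strand, GENCODE M21 on GRCm38) stood at 2269 CPM (exact Poisson 95% interval 2229 to 2311), 1978 CPM (1933 to 2024) and 848 CPM (816 to 881) in members of libraries 1, 2 and 3. Without the mesothelial-gene barcodes the values were 2324, 1998 and 1129 CPM. Barcodes led by the Pi16, Inmt and Sfrp1 trios held 255, 265 and 228 CPM, well above the 4.28 CPM of epithelial and 9.6 CPM of immune barcodes. After thinning to 2000 UMIs, 77.0% of 1624 members had a Ccl11 UMI, against 0.702% of epithelial and 1.47% of immune barcodes, which measure the background from free RNA at the same depth. Members held 76.7% of all Ccl11 UMIs of the filtered barcodes, by library 84.1, 78.7 and 52.3%. The whole fibroblast gate held 85.1%, and the gates of other cell types did not cover all barcodes outside it. These shares follow in part from the rule, which used Ccl11. Of its relatives, Ccl24, eotaxin-2, had 5 UMIs in all members and Ccl26 had 0, which allows up to 3 UMIs. The eotaxin receptor Ccr3 had 2 UMIs in members and 27 in immune barcodes, where Ccl24 had 203.

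Postn (chromosome 3, 54361109 to 54391037, plus strand) stood at 1812, 1267 and 1145 CPM in members of libraries 1, 2 and 3. The Pi16-led barcodes held 343 CPM, the Sfrp1-led 208 CPM and the Inmt-led 91.9 CPM. Unlike Ccl11, Postn was also high in muscle barcodes, at 878 CPM. They held 25.1% of all Postn UMIs, 42.9% in library 3, against 54.3% in members. Muscle barcodes held 19 CPM of Ccl11. Postn alone therefore did not tell these fibroblasts from muscle cells.

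Col6a1 (chromosome 10, 76708792 to 76726168, minus strand) stood at 1845, 1696 and 1090 CPM in members and separated the trios least. The Sfrp1-led barcodes held 936 CPM, the Inmt-led 684 CPM and the Pi16-led 639 CPM. After thinning, 91.3% of members and 78.9% of the Sfrp1-led barcodes had a Col6a1 UMI. With Ccl11 and Postn in place of the trio, 1419 barcodes led, 25.8% of the gate.

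**Figure D2:**
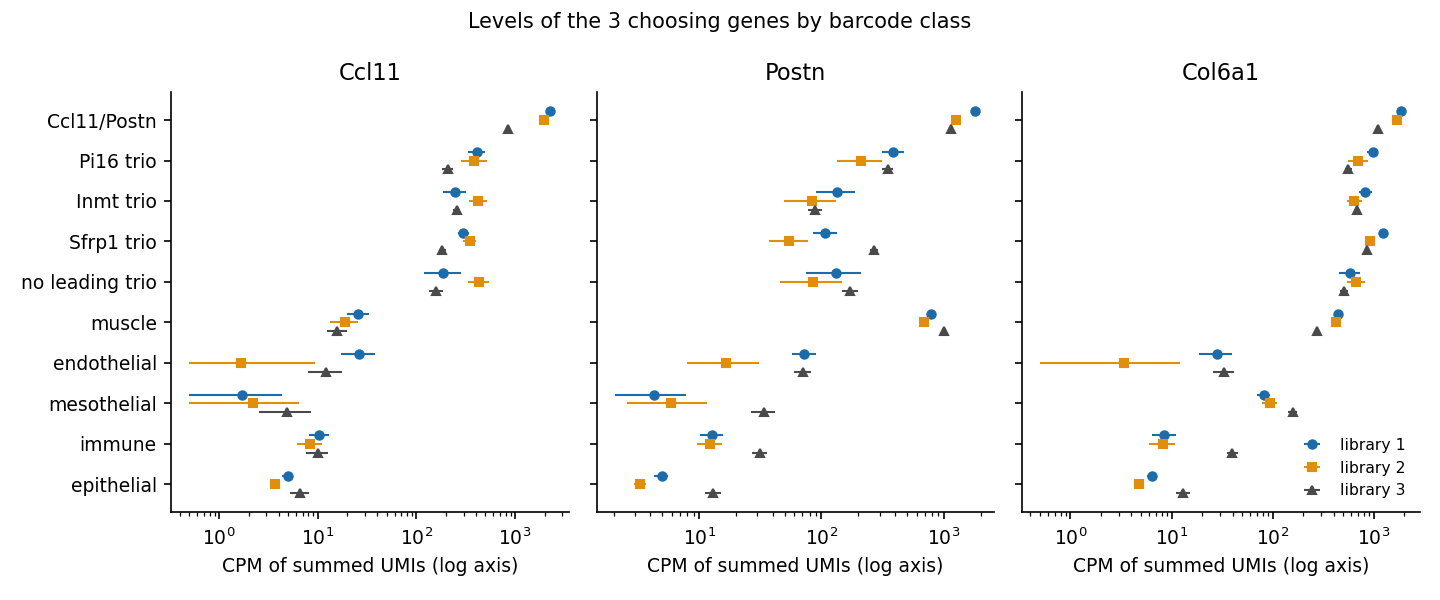
Level of Ccl11, Postn and Col6a1 (CPM of summed UMIs, log axis) in members, in barcodes led by the other trios or by none, and in gates of other cell types, for libraries 1 to 3 with exact Poisson 95% intervals. Ccl11 falls from 848 to 2269 CPM in members to at most 26.0 CPM in the gates of other cell types, while muscle barcodes keep 688 to 1006 CPM of Postn. Those gates do not cover all barcodes outside the fibroblast gate.

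The members were split by which of Ccl11 and Postn they held. Of the members, 1350 (71.2%) had a UMI of both, 234 (12.3%) of Ccl11 alone, 226 (11.9%) of Postn alone and 87 (4.59%) of neither, having entered on Col6a1 only. The share with both was 84.9, 75.6 and 56.8% by library, which follows the order of the median member depth. Because membership favours co-detection, the same count was made over the whole fibroblast gate at 2000 UMIs. There, 1031 of 3508 barcodes had a UMI of both, 716 of Ccl11 alone, 526 of Postn alone and 1235 of neither. The libraries differed in this. In library 1, 303 barcodes had both, 92 Ccl11 alone and 74 Postn alone, and in library 2 these were 413, 256 and 97. In library 3, which gave 2005 of the 3508 barcodes, they were 315, 368 and 355. Barcodes with both thus outnumbered each single class in libraries 1 and 2 but not in library 3. Of the barcodes with Ccl11, 59.0% of 1747 had a Postn UMI, against 29.9% of the 1761 without. By library these shares were 76.7 and 37.2%, 61.7 and 40.4%, and 46.1 and 26.9%.

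Members with only one of both genes differed in other genes. Postn-only members carried contractile genes: Acta2, smooth muscle actin, stood at 2298, 1814 and 2440 CPM in libraries 1, 2 and 3, against 352, 200 and 559 CPM in members with both genes and 93.9, 157 and 190 CPM in Ccl11-only members. Myl9, a myosin light chain, was at 535, 450 and 372 CPM in Postn-only and 24.7, 53.9 and 49.3 CPM in Ccl11-only members, and Cnn1, calponin, at 142, 90.0 and 192 against 9.88, 7.71 and 19 CPM. In both genes the levels of the groups did not overlap across libraries, which follows in part from how they were picked. Ccl11-only members carried more Adh1, an alcohol dehydrogenase of retinol metabolism, at 64.2, 59.1 and 98.7 against 12.9, 9 and 22.1 CPM in Postn-only members. Cxcl12, a chemokine that retains haematopoietic cells, was at 514, 372 and 645 CPM in Ccl11-only and 250, 216 and 233 CPM in Postn-only members. Adamdec1, a metalloprotease-like protein of intestinal fibroblasts, was at 59.3, 56.5 and 37.9 CPM against 0, 18.0 and 6.8 CPM. These genes were picked from the split itself and are a description. Postn-only barcodes were 5.46, 8.1 and 20.6% of members by library, and over all members 98 barcodes reached 5000 CPM of Acta2, Tagln and Myh11.

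Summed over their barcodes, members with neither gene looked unlike the rest. Slpi, a protease inhibitor, stood at 4686, 4305 and 12353 CPM in them against 3.9, 10.2 and 521 CPM in members with both genes, and Msln, the mesothelial gene mesothelin, at 738, 485 and 1308 against 0.433, 7.6 and 79.6 CPM. H19 and Dkk2, which are high in the other members, had 0 UMIs in the 12 such barcodes of library 1. For these 87 barcodes the data go against the label, since they hold no UMI of either name gene and their summed counts are rich in mesothelial ones.

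**Figure D3:**
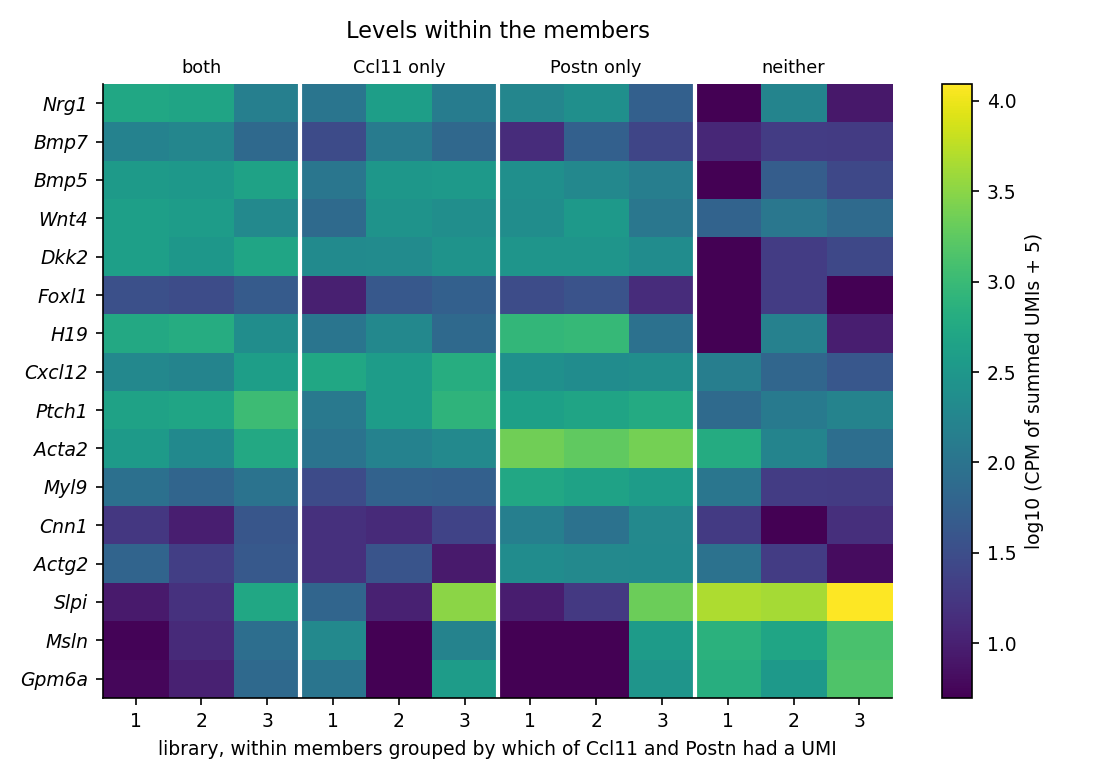
Level of 16 genes (colour, log10 of CPM of summed UMIs plus 5) in members with a UMI of both Ccl11 and Postn, of Ccl11 only, of Postn only, or of neither, in libraries 1 to 3. Acta2 reaches 1814 to 2440 CPM in Postn-only members, and Slpi 4305 to 12353 CPM in members with neither gene.

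Against the 2885 barcodes led by the other trios, 64 of 5158 genes were at least 2-fold higher in members in each of the 3 libraries, or 1.24% of the genes that could be counted. A further 78 of 4758, or 1.64%, were at least 2-fold lower in each library. Folds were computed with 5 CPM added on both sides, from genes with at least 20 UMIs and 20 CPM in each library on the side that is higher, and the 24 genes of the trios and of the gate were left out. With 1 library a group there is no test, and a gene past 2-fold in each library is called higher or lower here. The median log2 ratio over all 5433 genes counted was 0.02. These shares and this median stand beside each list count below. The comparison barcodes were most often Sfrp1-led in libraries 1 and 2 and Inmt-led in library 3. Without the mesothelial-gene barcodes, 88 of 5118 genes were higher (1.72%), among them 63 of the 64, and 95 of 4641 were lower (2.05%), among them 73 of the 78. Without library 3, 150 genes were higher and 143 lower, including all of the 64 and 78.

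Several ligands of the Wnt and BMP families and some of their secreted inhibitors were higher in members. Of 33 genes in this list, 14 could be counted, and 7 of these were higher and none lower. Over all genes 1.24% were higher and 1.64% lower. The median log2 ratio of the list was 1.55 against 0.02 over all genes. Wnt4, a Wnt ligand, stood at 372, 357 and 155 CPM in members of libraries 1, 2 and 3 and at 31.1, 59.3 and 29.2 CPM in the other trios, a log2 ratio of 3.38, 2.49 and 2.23. Bmp7, a BMP ligand, stood at 141, 159 and 47.6 CPM against 4.79, 11.4 and 3.67 CPM, a log2 ratio of 3.9, 3.32 and 2.60. For both ligands every library of members lay above every library of the comparison, and library 3 was the lowest.

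Bmp5 was at 326, 305 and 292 CPM against 45.5, 86.7 and 66.6 CPM, with a log2 ratio of 1.76 to 2.71, and differed little between libraries. Bmp2 was at 445, 405 and 240 CPM against 129, 115 and 115 CPM, just past 2-fold in library 3 (log2 1.03, and 1.36 without the mesothelial-gene barcodes). Bmp4, a BMP ligand of the same family, did not differ 2-fold, at 223, 174 and 230 CPM against 225, 172 and 293 CPM. Members thus held more of some BMP ligands and not of others.

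Some secreted Wnt inhibitors were higher in members and others were not. Dkk2, which blocks the Wnt co-receptors, stood at 380, 294 and 326 CPM against 31.1, 50.2 and 56.6 CPM, a log2 ratio of 3.41, 2.44 and 2.42. Wif1, which binds Wnt proteins, was at 644, 600 and 419 CPM against 152, 131 and 128 CPM, and Sfrp2 at 141, 150 and 93.6 CPM against 7.99, 17.1 and 34.4 CPM. Dkk3 was not 2-fold apart, at 334, 426 and 276 CPM against 227, 228 and 219 CPM, and Sfrp1, which the rule used, was lower. Notum, outside this list, removes the lipid that Wnt proteins need, and was at 129, 167 and 151 CPM against 27.9, 31.9 and 43.3 CPM. Of the R-spondins, which strengthen Wnt signals, Rspo2 and Rspo4 had 0 UMIs in members, which allows up to 3 UMIs each. Rspo3 was low but above the floor, at 11.2, 14.0 and 9.33 CPM. Without the mesothelial-gene barcodes its log2 ratio was -1.78, -0.63 and -1.67, so it was lower in members but not 2-fold in library 2. The BMP inhibitor Grem1 was near the floor, at 0.192, 0 and 1.61 CPM against 5.59, 4.56 and 10.6 CPM.

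Part of this pattern was shared with the Inmt-led fibroblasts. Wif1 stood at 286 CPM in Inmt-led barcodes, 119 CPM in Pi16-led and 9.34 CPM in Sfrp1-led barcodes. In library 1 the Inmt-led level of Wif1, 553 CPM, came close to the 644 CPM of members, and in library 1 Notum was 137 CPM in Inmt-led barcodes against 129 CPM in members. Of the 20 genes named as highest, 19 were above the Inmt-led level in each library, and Notum in 2 of 3. The 20 were picked by their fold over barcodes that include the Inmt-led ones, so this count follows in part from the choice. Bmp7, by contrast, was at 6.16 CPM in Inmt-led, 8.24 CPM in Pi16-led and 2.02 CPM in Sfrp1-led barcodes.

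A list of genes known from fibroblasts next to gut epithelium overlaps the last one and gave a like count. Of 19 genes, 12 could be counted, 6 were higher (Bmp5, Bmp7, Wnt4, Foxl1, Nrg1 and Tnc) and 1 lower. The shares over all genes were 1.24% higher and 1.64% lower. The median log2 ratio of the list was 1.69. Nrg1, neuregulin-1, a ligand of epithelial ErbB receptors, stood at 467, 442 and 93.3 CPM against 37.5, 42.2 and 12.2 CPM, a log2 ratio of 3.47, 3.24 and 2.51. After thinning, 38.8% of members and 3.06% of the other trios had an Nrg1 UMI. Foxl1, a transcription factor that marks telocytes below gut epithelium, was low in level, at 26.5, 27.5 and 28.0 CPM against 3.19, 4.56 and 4.44 CPM. The lower gene was F3, tissue factor, at 70.4, 97.7 and 141 CPM against 210, 212 and 346 CPM. Epithelial marker sums were given above. With the gate's epithelial limit lowered to 2000 CPM, the median log2 ratio over libraries was 2.33 for Bmp5 (2.06 at the main limit). It was 3.28 for Bmp7 (3.32), 2.59 for Wnt4 (2.49), 1.96 for Foxl1 (1.81) and 3.18 for Nrg1 (3.24). All 32 genes named for their fold stayed past 2-fold. The list counts were not retaken at that limit, so the part of epithelial markers in them was not tested.

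Of 30 transcription factors and Hedgehog components of mesenchyme counted, 6 were higher, 2 lower and 22 did not pass. Beside this, 1.24% of all genes were higher and 1.64% lower. The median log2 ratio of the list was 0.52. Foxf2, a forkhead factor of gut mesenchyme, stood at 29.4, 37.0 and 35.4 CPM against 2.4, 9.13 and 8.88 CPM. Ptch1, the Hedgehog receptor and a target of the pathway, was at 416, 470 and 765 CPM against 144, 171 and 380 CPM, and was barely past 2-fold in library 3. Its log2 ratio there was 1.33 without the mesothelial-gene barcodes. Hhip, a Hedgehog-binding inhibitor and also a target, was at 220, 221 and 437 CPM against 65.5, 75.3 and 126 CPM. Gli1, another target, was not 2-fold apart, at 42.7, 42.1 and 42.5 CPM against 55.9, 38.8 and 44.2 CPM. Tbx3 and Sox9 completed the higher genes. Prrx1, at 25.2, 14.8 and 42.5 against 62.3, 45.6 and 129 CPM, and Ebf1, at 14.0, 10.3 and 31.2 against 105, 102 and 134 CPM, were the lower ones. Foxf1 passed 2-fold in each library only without the mesothelial-gene barcodes; with them it stood at 313, 306 and 217 CPM against 124, 111 and 113 CPM.

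**Figure D4:**
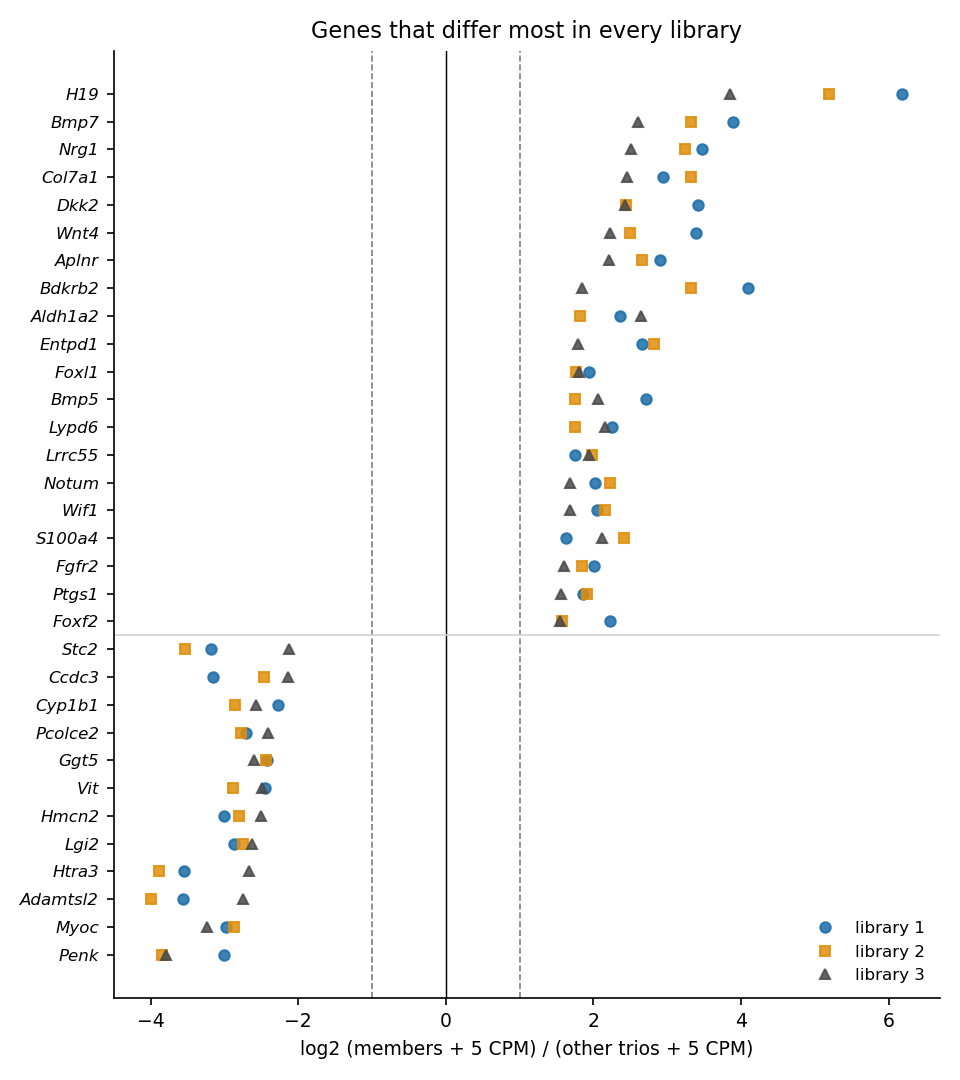
The log2 ratio of members over the other trios, with 5 CPM added on both sides, in libraries 1 to 3 for the 20 genes furthest above and the 12 furthest below 0 in every library. Dashed lines mark 2-fold. H19 spans 3.85 to 6.18 and Penk -3.85 to -3.0.

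H19, an imprinted long non-coding RNA that is abundant before birth (chromosome 7, 142575529 to 142578143, minus strand), differed most. It stood at 532 CPM (512 to 552), 594 CPM (570 to 619) and 143 CPM (130 to 156) in members of libraries 1, 2 and 3, against 2.4, 11.4 and 5.2 CPM in the other trios. The log2 ratios with the offset were 6.18, 5.19 and 3.85, and members lay above the comparison in each library. The comparison held 3, 10 and 34 H19 UMIs, and the plain ratio was 222 (counting interval 75.9 to 1077), 52.1 (28.3 to 109) and 27.4 (19.3 to 40.1). After thinning, 21.7% of members and 0.765% of the other trios had an H19 UMI. It was higher in Postn-only than in Ccl11-only members, at 867, 927 and 88.3 against 98.8, 185 and 68.3 CPM.

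Other genes high in members were receptors, matrix and enzyme genes. Col7a1, the collagen of the anchoring fibrils that hold basement membrane to stroma, stood at 150, 147 and 77.2 CPM against 15.2, 10.3 and 9.95 CPM. Bdkrb2, the bradykinin receptor, was at 148, 136 and 39.3 CPM against 3.99, 9.13 and 7.35 CPM. Aldh1a2, which makes retinoic acid, was at 148, 114 and 171 CPM against 24.8, 28.5 and 23.0 CPM. Ptgs1, cyclooxygenase-1, was at 184, 220 and 218 CPM against 47.1, 54.8 and 70.7 CPM, and unlike H19, Nrg1 and Bmp7 it was no lower in library 3. Fgfr2, a fibroblast growth factor receptor, was at 176, 181 and 176 CPM against 39.9, 46.8 and 54.8 CPM. S100a4, a calcium-binding protein, was at 298, 331 and 184 CPM against 92.6, 58.2 and 38.7 CPM. Aplnr, the apelin receptor, Entpd1, which breaks down extracellular ATP, Lypd6 and Lrrc55 completed the 20 genes, with lowest ratios over libraries of 2.21, 1.79, 1.75 and 1.75.

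Among matrix genes some glycoproteins were higher in members and others lower. Of 23 matricellular and adhesive glycoproteins counted, 4 were higher and 4 lower. For this and the other matrix lists, the shares over all genes were 1.24% higher and 1.64% lower. Tnc, tenascin-C, stood at 74.1, 58.8 and 55.7 CPM against 3.19, 5.7 and 21.6 CPM. Spon1, spondin-1, was at 666, 702 and 371 CPM against 147, 190 and 152 CPM, with Vcan and Wisp1 the other higher genes. Tnxb, tenascin-X, was at 74.4, 66.9 and 117 CPM against 248, 234 and 335 CPM, and Sparcl1 at 128, 82.9 and 189 CPM against 739, 568 and 729 CPM. Thbs2 and Ctgf were also lower, Ctgf no longer without the mesothelial-gene barcodes. Of 9 small proteoglycans counted none was higher and 2 lower, Fmod and Ogn. Of 17 elastic-fibre and crosslinking genes none was higher and 3 lower, among them Lox, a collagen and elastin crosslinking enzyme, at 69.4, 55.6 and 141 CPM against 310, 243 and 347 CPM. Of 15 microfibril and basement membrane collagens 1 was higher, Col7a1. Without the mesothelial-gene barcodes, Fbn2, an elastic-fibre gene, was also higher, and Gpc3 among the proteoglycans and Fbln2 among the glycoproteins were also lower. None of the 4 fibrillar collagens counted outside the gate differed 2-fold in each library.

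Activation genes lay mostly above the other trios, though few passed 2-fold. Of 15 activated fibroblast and myofibroblast genes counted outside the rule, 2 were higher, Tnc and Thy1, and none lower. Over all genes 1.24% were higher. In this list 12 genes had a log2 ratio above 0 in each library, against 1418 of 5433 over all genes. The median log2 ratio was 0.52, against 0.02 over all genes. Thy1, a surface glycoprotein, stood at 499, 431 and 360 CPM against 132, 131 and 165 CPM. Cthrc1, a gene of activated scar fibroblasts, was at 0.577, 1.62 and 11.6 CPM in members. Actg2, an enteric smooth muscle actin, was higher, at 62.7, 28.9 and 58.6 CPM against 26.4, 7.98 and 22.3 CPM, with the muscle marker sums given above beside it.

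Of 9 chemokines counted outside the rule, 1 was higher in members and 3 were lower, with a median log2 ratio of -0.46. For these and the cytokines below, the shares over all genes were 1.24% higher and 1.64% lower. Ccl8, a monocyte and eosinophil chemokine, stood at 163, 104 and 24.1 CPM against 15.2, 16 and 6.12 CPM. Cxcl12 was at 202, 190 and 310 CPM against 504, 463 and 734 CPM, Cxcl1 at 188, 112 and 74.0 against 540, 258 and 185 CPM, and Cxcl14 at 68.1, 57.5 and 15.8 against 144, 122 and 68.6 CPM. Cxcl12 was no longer 2-fold lower in each library without the mesothelial-gene barcodes. Of 8 stromal cytokines counted, Il34, a ligand of the macrophage receptor Csf1r, was higher at 60.2, 54.0 and 27.4 CPM against 15.2, 3.42 and 7.5 CPM, and Flt3l was lower. Il6 stood at 247, 168 and 239 CPM against 682, 416 and 477 CPM and fell just short of 2-fold in library 3, at a log2 ratio of -0.98. Without the mesothelial-gene barcodes that ratio was -0.70.

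The receptors and relay of type 2 cytokines, which induce Ccl11 and Postn in other tissues, gave no calls. None of 20 genes counted was 2-fold higher or lower in each library, and the median log2 ratio was 0.20. Over all genes 1.24% were higher and 1.64% lower. Having no call is near that share here and in the short lists that follow, and is no result about these pathways. Il4ra, the interleukin-4 receptor chain, stood at 78.1, 118 and 75.3 CPM against 70.3, 75.3 and 55.9 CPM, and Il13ra1 at 46.2, 42.4 and 58.9 CPM against 26.4, 27.4 and 38.9 CPM. Stat6, the transcription factor that relays both, was at 37.9, 32.9 and 39.6 CPM against 36.7, 34.2 and 39.5 CPM. No gene of the TGF beta pathway passed 2-fold in each library either, of 24 counted, with a median log2 ratio of -0.11. Without the mesothelial-gene barcodes, Inhba, an activin subunit, was higher at log2 ratios of 2.05, 2.19 and 1.06, and Fst, follistatin, an activin inhibitor, was lower at -2.17, -2.52 and -1.88. With all members, no gene passed either among 10 complement genes, 16 integrins and matrix receptors, 26 immediate early and heat shock genes, 15 NF-kB targets, 21 interferon-response genes, 11 glucocorticoid-induced genes, 21 chaperones of the secretory pathway and 3 cell cycle genes. Without those barcodes, Sdc1 among the integrins and matrix receptors and Iigp1 among the interferon-response genes were higher. Ifi204 of the interferon list and Mt2 of the glucocorticoid list were then lower. With all members, 8 of the 11 glucocorticoid-induced genes lay below 0 in each library and 0 lay above. Over all genes 1092 of 5433 lay below and 1418 above. The glucocorticoid list had a median log2 ratio of -0.32.

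The lower genes were ranked by the library in which they differed least, and Penk led. Penk, which encodes enkephalin precursors, stood at 16, 6.75 and 32.2 CPM against 163, 164 and 509 CPM, a log2 ratio of -3.0, -3.85 and -3.79. Its level was 760 CPM in Inmt-led barcodes. Htra3, a secreted protease, was at 12.1, 8.64 and 49.6 CPM against 195, 197 and 343 CPM. Stc2, stanniocalcin-2, was at 18.3, 18.1 and 47.0 CPM against 207, 262 and 222 CPM. Members of all libraries lay below the comparison in these genes, which follows in part from their ranking. Of 17 adventitial genes counted none was higher and 3 were lower, Dpt, Ly6c1 and Pcolce2. The list's median log2 ratio was -0.62, and over all genes 1.24% were higher and 1.64% lower. Gfpt2 was also lower without the mesothelial-gene barcodes. Dpt, dermatopontin, stood at 439, 280 and 575 CPM against 1108, 754 and 1948 CPM. Other genes named for the lower side were Myoc, Adamtsl2, Lgi2, Hmcn2, Vit, Ggt5, Cyp1b1 and Ccdc3. Of their ratios in single libraries, the one nearest 0 was -2.14, for Ccdc3 in library 3.

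The remaining lists also held calls, beside shares of 1.24% higher and 1.64% lower over all genes. Of 25 growth factors and receptors counted, Fgfr2 and Nrg1 were higher and Ptn, Sema3d and Slit3 lower, and Sema3a was also higher without the mesothelial-gene barcodes. Of 18 genes of retinoid, steroid and lipid handling, Aldh1a2, Apod and Ptgs1 were higher and Cyp1b1 lower. Serpine2 and Htra3 were the lower genes among 22 matrix proteases and inhibitors, and Cyp1b1 was lower among 23 genes of oxidative, xenobiotic and metal response, joined by Mt2 without those barcodes.

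**Figure D5:**
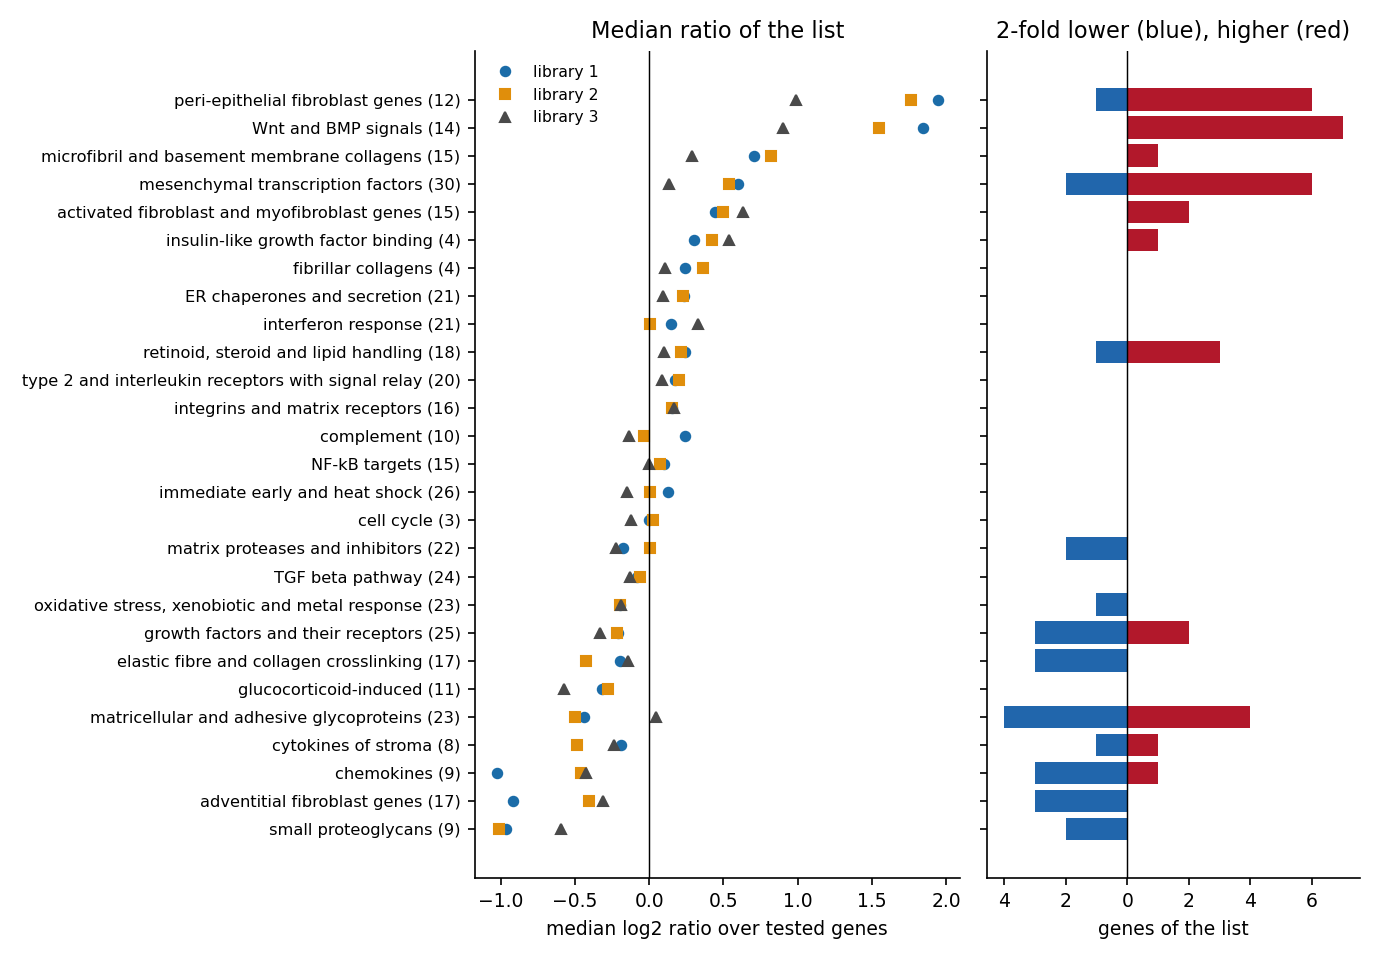
Left, the median log2 ratio of members over the other trios for each gene list in libraries 1 to 3, with the number of genes counted in brackets. Right, how many genes of each list were at least 2-fold higher (red) or lower (blue) in each library. Wnt and BMP signals have 7 higher genes of 14, the adventitial list 3 lower of 17. Over all genes 1.24% were higher and 1.64% lower.

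Within the members, some genes differed strongly between libraries. The 6 genes with the widest range among those at 100 CPM or more were Slpi, Gas1, Gpm6a, Dmkn, AY036118 and Msln. Slpi stood at 137 and 86.4 CPM in libraries 1 and 2 and at 3469 CPM in library 3, and without the mesothelial-gene barcodes at 3.94, 4.36 and 20.8 CPM. Msln likewise went from 28.5, 14.8 and 391 CPM to 0.788, 0.545 and 8.24 CPM, and Gpm6a and Dmkn to at most 6.07 CPM. Gas1, a growth-arrest and Hedgehog co-receptor gene, stood at 60.0, 17.8 and 789 CPM with those barcodes and 26.4, 9 and 203 CPM without. The ratio of its highest to its lowest library, with 5 CPM added, went from 34.8 to 14.8. AY036118 stood at 265, 630 and 26.1 CPM in members and at 171, 440 and 26.6 CPM in the other trios. Igfbp5, the only higher gene of 4 insulin-like growth factor binding genes counted, was at 598, 468 and 2727 CPM, and at 464, 401 and 480 CPM without the mesothelial-gene barcodes, where its fold over the other trios remained at least 2-fold in each library.

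The genes that set the members apart were partly lower in library 3 also without those barcodes. H19 was then at 532, 600 and 192 CPM, Nrg1 at 479, 446 and 124 CPM, Bmp7 at 144, 160 and 59.4 CPM and Ccl8 at 166, 105 and 32.5 CPM. The median depth of members also fell from library 1 to 3, which was not tested as a part of this. Several large library differences ran the same way in the other trios. Ccl2, a monocyte chemokine, stood at 702, 663 and 115 CPM in members and 1247, 915 and 75.0 CPM in the others, Igfbp7 at 2783, 2950 and 722 against 2618, 2655 and 638 CPM, and Dusp1, an immediate early phosphatase, at 765, 646 and 2700 against 1064, 908 and 4109 CPM. Apoe was highest in library 2 in both, at 2021, 4318 and 715 CPM in members and 2674, 4619 and 1119 CPM in the others. As the libraries are not assigned to groups, exposure, handling and depth cannot be told apart in any of these differences.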

How the data were processed

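Gallbladder cells of 3 pools were profiled with droplet 3′ libraries. The authors deposited 1 matrix of raw UMI counts, 31053 genes by 27700 barcodes, made with Cell Ranger 6.1.1 on GRCm38 (mm10) per the submitters' processing notes; filters beyond cell calling are not given in the sources used here. From these counts, UMIs were summed over the barcodes of a class and library and scaled to CPM. Intervals are 95%, exact Poisson for levels and exact binomial (Clopper-Pearson) for shares, and cover counting error only. For thinned shares each barcode was drawn down to 2000 UMIs with seed 0. Doublets were scored with Scrublet in scanpy 1.11.5, with a score threshold of 0.25 and an expected rate of 6%. Python 3.11.15, numpy 2.4.6, scipy 1.17.1 and pandas 2.3.3 were used. Gene positions came from GENCODE M21, which held 30934 of the gene identifiers, and promoter windows from RefSeq. The fold procedure was tested on simulated counts. Levels of 3′ counts are not divided by gene length and are compared only within a gene.

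Genes named were the 4 trios, the eotaxin family, the 20 genes with the largest smallest ratio over libraries and the 12 on the lower side, the 3 highest genes of each list, and the 6 with the widest range over libraries. Other list members named, and genes of the Ccl11 and Postn split, were chosen after their values were seen. The members, the 37 gene lists (9 of them markers of other cells) and the rule were chosen with earlier results of these data known. The closing section gives the alternatives tried.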

Additional observations from a re-analysis of the deposited data

How the results depend on the processing

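No paired analysis was possible because each group was 1 library and library numbers are not tied to samples. The share of members in the fibroblast gate, 34.5%, was 31.8% with at least 5 UMIs of the trio, 28.1% where the trio had to reach 2 times the next, 25.8% with Ccl11 and Postn alone, 36.0% with a minimum of 500 genes and 41.9% thinned to 2000 UMIs. Leaving out 1 library at a time gave 25.7 to 67.8%, the highest without library 3. The 64 higher genes became 30 with an offset of 20 CPM and 126 when the fold was taken on the libraries' mean level. The 78 lower genes became 43 after thinning, where 2139 genes could be counted in place of 4758, and 130 on the mean level. Leaving out 1 library gave 65 to 150 higher and 96 to 143 lower genes, both highest without library 3, where 2 libraries had to pass in place of 3. No gene named for its fold changed direction under any alternative. Of the 32, 30 stayed past 2-fold with Ccl11 and Postn alone (not Aldh1a2 and Foxl1), 25 after thinning and 28 with the offset of 20 CPM. Genes under 20 UMIs or 20 CPM in a library could not be counted, and the number of UMIs sets that limit.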
